A study of Mus musculus with 4 samples.

Results

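The 10 genes described here make, destroy or sense retinoic acid, the signalling molecule derived from vitamin A. They were chosen by name, from 21887 protein-coding genes on chromosomes 1 to 19, X and Y, and fall into 4 synthesis genes (Rdh10, Aldh1a1, Aldh1a2, Aldh1a3), 3 breakdown genes (Cyp26a1, Cyp26b1, Cyp26c1) and 3 receptor genes (Rara, Rarb, Rarg). A peak was taken for a gene when its centre lay in the gene or within 100 kb of either end. Of 11438 FOXL2 peaks, 21 met this definition for at least 1 of the 10 genes. FOXL2, a forkhead transcription factor, is made in the somatic cells that support the oocytes. Its sites were mapped by ChIP-seq, the sequencing of DNA recovered with an antibody to the bound protein. There were 2 samples of FOXL2 ChIP and 2 of input, meaning chromatin taken without antibody, all from ovaries (XX gonads) of CD1 embryos at E14.5. Each ChIP used a different pool of 80 to 100 ovaries freed of the mesonephros, so the whole organ with all its cell types was sampled. A single list of peak positions stood for both ChIP samples, with no score, height or read count. No peak therefore has a replicate value, the depth is unknown, and the counts below carry no test. Peak positions hold no RNA levels, so the cell types of the tissue could not be checked against markers.

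Retinoic acid is made from retinol, which RDH10 oxidises to retinal, and the retinal dehydrogenases of the ALDH1A family oxidise retinal to retinoic acid. CYP26 enzymes hydroxylate it and so mark it for removal, and the receptors RARA, RARB and RARG bind DNA with RXR partners at pairs of a hexamer, a recognition sequence of which AGGTCA is the best known form. In the fetal ovary retinoic acid has been linked to the entry of germ cells into meiosis, and in the fetal testis CYP26B1 is known to break it down.

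Peaks lay at the start of 1 synthesis gene and 1 receptor gene for which a start was listed, and at an end of a second synthesis gene, while no breakdown gene had a peak within 10 kb, a distance within which 49.6% of all protein-coding genes had one. The sequences at these places are shown first because they give the site of each start peak and, for a breakdown gene without one, the kind of element that retinoic acid receptors bind. They run from 250 bases before to 50 bases after a transcription start, 5′ to 3′ on the gene's strand, and come from RefSeq tables of build GRCm38.p6, the assembly behind mm10. Of the 10 genes, 8 had a listed start, and Rdh10 and Aldh1a3 had none. In the first sequence, that of Aldh1a2 at chr9:71215539-71215838 on the plus strand, capitals mark the 133 bases inside the FOXL2 peak. In the second, that of Rarb at chr14:16575427-16575726 on the minus strand, capitals mark the 166 bases inside the peak. In the third, that of Cyp26a1 at chr19:37697558-37697857 on the plus strand, no base was in a peak, and capitals mark a pair of hexamers 5 bases apart on the opposite strand.
Aldh1a2: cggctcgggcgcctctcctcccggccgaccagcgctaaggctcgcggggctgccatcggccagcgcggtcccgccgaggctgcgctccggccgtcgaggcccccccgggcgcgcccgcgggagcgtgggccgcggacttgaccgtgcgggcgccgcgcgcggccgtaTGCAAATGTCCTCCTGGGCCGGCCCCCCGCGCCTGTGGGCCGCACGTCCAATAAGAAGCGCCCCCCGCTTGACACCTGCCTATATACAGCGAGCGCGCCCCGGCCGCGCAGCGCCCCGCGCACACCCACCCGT
Rarb: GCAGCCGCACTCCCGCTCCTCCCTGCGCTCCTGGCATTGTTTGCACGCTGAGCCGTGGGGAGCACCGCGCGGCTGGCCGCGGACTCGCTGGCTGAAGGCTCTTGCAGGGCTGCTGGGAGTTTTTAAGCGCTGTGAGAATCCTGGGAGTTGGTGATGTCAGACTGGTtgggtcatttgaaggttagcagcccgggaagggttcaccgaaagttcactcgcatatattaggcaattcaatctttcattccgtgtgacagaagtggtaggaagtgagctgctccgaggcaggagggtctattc
Cyp26a1: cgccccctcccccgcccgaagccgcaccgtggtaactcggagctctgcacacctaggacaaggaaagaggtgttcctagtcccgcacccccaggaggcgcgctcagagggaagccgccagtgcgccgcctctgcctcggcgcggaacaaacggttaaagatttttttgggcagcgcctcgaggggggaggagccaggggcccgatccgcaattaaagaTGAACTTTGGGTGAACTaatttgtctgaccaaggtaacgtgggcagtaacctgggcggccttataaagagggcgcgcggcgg

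The Rarb sequence also held such a pair, 53 to 37 bases before the start and in the direction of the gene, but outside the peak, whose nearest base was separated from it by 31 bases. Hexamers are in capitals in both elements, and that of Cyp26a1, 32 to 16 bases before the start, is written as read on the opposite strand.
Rarb element: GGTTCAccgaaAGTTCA
Cyp26a1 element: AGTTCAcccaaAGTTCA

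Such a match is of letters only and no measure of binding. Pairs of this kind were rare among starts. With the hexamer AGGTCA or its variants AGTTCA or also GGTTCA or also GGGTCA on either strand and 5 bases between them, 17 of 21263 listed starts of protein-coding genes (0.08%) held a pair. Only 1 of these 17, that of Rarb, had a peak on any base of its 300-base sequence, as did 4732 of all 21263 listed starts. A pair was in 0.0211% of the starts so overlapped and in 0.0968% of the others, a difference that was not tested. The variants GGTTCA and then GGGTCA were added after the peak positions had been seen. GGTTCA is the first hexamer of the Rarb element, so the match of Rarb depended on this addition. With AGGTCA or else AGTTCA alone, 6 starts (0.0282%) held a pair, Cyp26a1 among them and Rarb not. Pairs 2 bases apart were found in none of the listed member starts, against 0.0188% of all starts with the first hexamers and 0.0894% with all of them. The forkhead sequences TGTTTAC and TGTTTA, searched on both strands, were in none of the 13 listed starts of the 8 genes, against 3.01% and 11.5% of all listed starts, the shorter being part of the longer. TGTTTAC was in 3.42% of starts with a peak on any base and 2.89% of the others, and TGTTTA in 8.83% and 12.3%. The single hexamer AGGTCA was in 1 start of Rara and 1 of Rarg, neither in a peak, against 14.7% of all listed starts. Variants of the forkhead sequences were not searched, unlike those of the hexamer, so forkhead-like sites with other letters were not counted. Peak bases outside the 300-base windows were not searched.

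Of the 10 retinoic acid genes, 7 had a peak in the gene or within 100 kb, against 76.3% of all protein-coding genes, so the share in this wide window was near the background. In or within 10 kb of the gene the count was 4 of 10, against 49.6%. Inside the gene it was 2 of 10, against 36.2%, and within 1 kb of either gene end it was also 2 of 10, against 35.3%. A peak that had a member's own end as its nearest protein-coding gene end was present for 3 of 10 genes, against 40.4%. Under all 5 definitions the share of the 10 genes was below that of all genes, by a margin that 2 more genes would close. The definitions overlap and count many of the same peaks, so they are not 5 separate results. The difference was not tested. The classes of 3 or 4 genes are likewise described by their counts.

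The numbers of peaks per class depended on the window. Within 100 kb the synthesis genes had 5 peaks in their windows, of which 3 were nearest to a synthesis gene and 2 to a neighbour. The breakdown genes had 1 peak, nearest to a neighbour. The receptor genes had 15 peaks, of which 2 were nearest to Rarb and 13 to neighbours. Within 10 kb the order was another, with 3 peaks at synthesis, 0 at breakdown and 2 at receptor genes. Per gene, all protein-coding genes had a median of 2 peaks within 100 kb (quartiles 1 and 4), and apart from Rarg with 9 and from Aldh1a1, Cyp26a1 and Cyp26c1 with 0 the 10 genes lay within these quartiles. No difference between the classes was tested. The windows of the 4 synthesis genes were reached by 6 other protein-coding genes when summed over the genes. Those of the 3 breakdown genes were reached by 5, and those of the 3 receptor genes by 22. Against genes with a number of such neighbours within 1.5 times its own, Rarb with 3 peaks lay above the quartiles of 0 and 2. Aldh1a1 with 0 lay within the same quartiles. Rarg stayed above its quartiles, Cyp26a1 and Cyp26c1 below theirs, and the remaining genes lay within theirs. Median distances to the nearest peak were 1.57 kb for synthesis, 135 kb for breakdown and 10.3 kb for receptor genes, against 10.6 kb for all protein-coding genes. These medians rest on 4, 3 and 3 genes whose own distances span wide ranges.

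**Figure D1:**
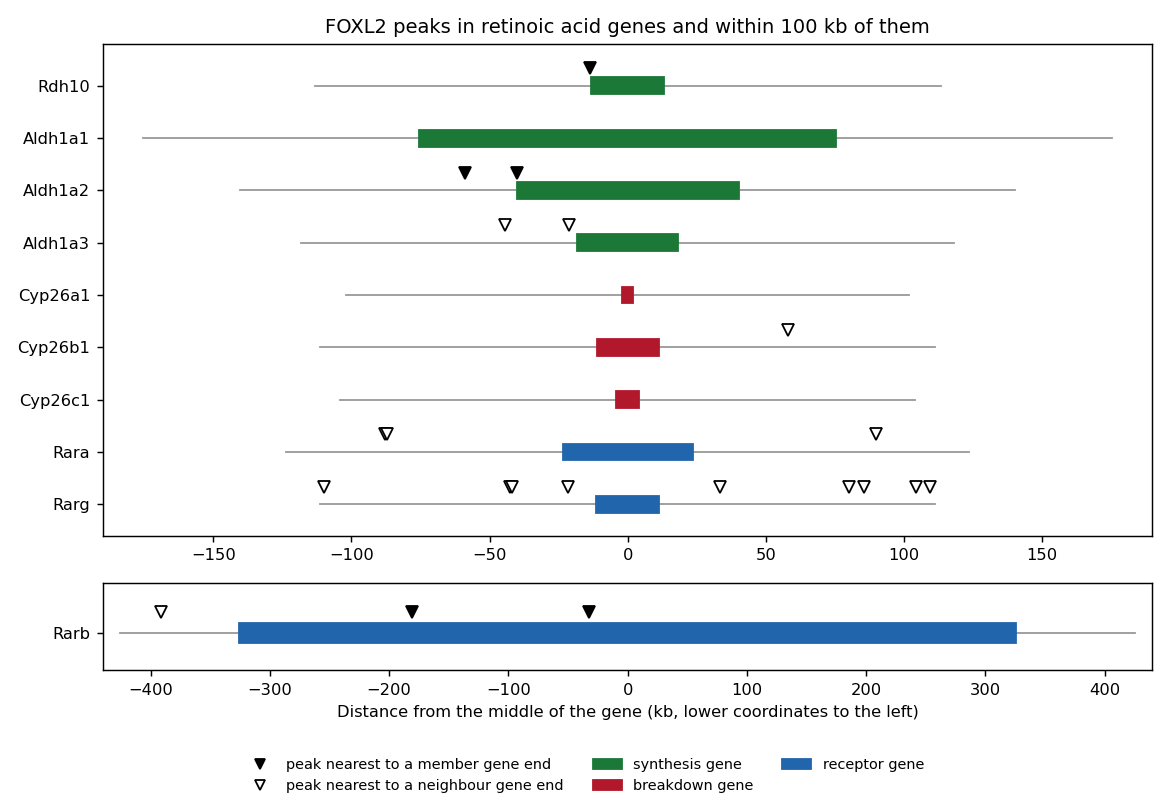
FOXL2 peaks (triangles) by distance in kb from the middle of each retinoic acid gene (coloured bar), with the window of 100 kb on either side as a grey line; Rarb has its own scale. Filled triangles, at Rdh10, Aldh1a2 and Rarb only, are the 5 peaks nearest to an end of a member gene, and open triangles are the 16 peaks nearest to an end of a neighbour.

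Among the synthesis genes, Aldh1a2, the main retinal dehydrogenase of the early embryo, carried a peak at its start. The gene lies on chromosome 9 from 71215789 to 71296243, and the peak at 71215706 to 71216005 was centred 66 bp downstream of the start, just inside the gene. A second peak, at 71196822 to 71197121, lay 18.8 kb upstream, inside the long noncoding RNA gene Gm32511, with 18.9 kb between the peak centres. No other protein-coding gene had an end nearer to either peak. The noncoding gene Gm3458 had an end 469 bp from the centre of the start peak. No further peak lay inside the gene, which is 80.5 kb long.

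Rdh10, the retinol dehydrogenase of the first step, had 1 peak and no other within 200 kb. It lay at 16105410 to 16105709 on chromosome 1, centred 323 bp outside the lower-coordinate end of the gene, which spans 16105882 to 16132550. Aldh1a3, a retinal dehydrogenase of eye and nasal development, had 2 peaks in its window on chromosome 7, and both were inside the neighbouring kinase gene Lrrk1. The nearer one, at 66387917 to 66388216, lay 2.83 kb from Aldh1a3 but 275 bp from a listed Lrrk1 start. The farther one, at 66364676 to 66364975, lay 26.1 kb from Aldh1a3 and 23.5 kb inside Lrrk1. Aldh1a1, the retinal dehydrogenase gene on chromosome 19, had the most distant nearest peak of the 10 genes, at 462 kb. Of all protein-coding genes, 9.08% had their nearest peak at least that far away. Among 1579 other genes within 1.5 times the 151 kb length of Aldh1a1, 62.5% had a peak inside.

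No breakdown gene had a peak in the gene or within 10 kb, while 49.6% of all protein-coding genes did, so a gene without one is common. Among other genes within 1.5 times their length, a peak inside was found in 21.9% for Cyp26a1, 40.4% for Cyp26b1 and 27.3% for Cyp26c1. Cyp26b1, the CYP26 enzyme of the fetal testis, lies on chromosome 6 from 84571414 to 84593908 on the minus strand, and its nearest peak was 46.8 kb upstream of the gene at 84640524 to 84640823. That peak was inside Exoc6b, a gene of the exocyst complex, 22.2 kb from the nearest Exoc6b end. Of all protein-coding genes 33.4% had their nearest peak at least as far away. Cyp26a1 and Cyp26c1 are neighbours on chromosome 19, and their windows held no peak. Their nearest peak was the same one, at 37550389 to 37550688 inside Exoc6, 147 kb from Cyp26a1 and 135 kb from Cyp26c1. Nearest peaks at least as far away were found for 19.3% and 20.2% of all protein-coding genes. Cyp26a1 and Cyp26c1 thus count as 1 place in the genome rather than 2.

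**Figure D2:**
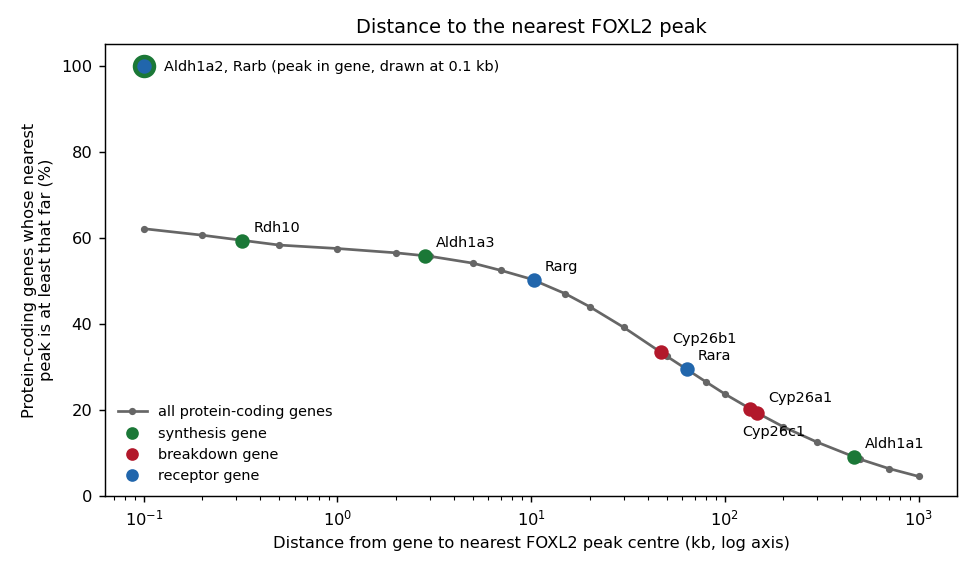
The distance in kb (log axis) from each retinoic acid gene to its nearest FOXL2 peak centre, against the percentage of all protein-coding genes whose nearest peak is at least that far (grey line). Rdh10 and Aldh1a3 lie left of 10 kb, Rarg just beyond it at 10.3 kb, and the 3 Cyp26 genes, Rara and Aldh1a1 between 46.8 and 462 kb; Aldh1a2 and Rarb, with a peak in the gene, are drawn at 0.1 kb.

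Among the receptors, Rarb was the only gene of the class with a peak inside it. Rarb, whose own transcription is raised by retinoic acid in many cells, spans 651 kb on chromosome 14 from 16430839 to 17082331 on the minus strand. A peak at 16575561 to 16575860 was centred 234 bp upstream of the only listed start of the gene. Measured to the gene's ends this peak is far from any, 145 kb from the lower-coordinate end, because the gene's annotated span goes on for 507 kb on the upstream side of the peak. A second internal peak, at 16724121 to 16724420, lay 149 kb upstream of the listed start and 293 kb from the lower-coordinate end. Among 235 other protein-coding genes within 1.5 times the length of Rarb, 63.8% had a peak inside and 29.4% had at least 2. The third peak in the window lay 65.5 kb beyond the gene, 130 bp from the start of the topoisomerase gene Top2b.

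Rara and Rarg had no peak in the gene or within 10 kb, although both windows held several. Rara, on chromosome 11 from 98927800 to 98974942, had 3 peaks in its window. Of these, 2 lay at Wipf2, 64.3 and 63.5 kb upstream of Rara and 138 and 717 bp from the Wipf2 end. The third lay 66.4 kb downstream, inside Igfbp4 and 77 bp from a listed start of that gene, which encodes a binding protein of insulin-like growth factors. The nearest peak of Rara was thus 63.5 kb away, and 29.5% of all protein-coding genes had theirs at least as far.

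Rarg, on chromosome 15 from 102234938 to 102257522 on the minus strand, had 9 peaks in its window, the most of the 10 genes, and 0.649% of all protein-coding genes had as many or more. All 9 were nearest to other genes. The closest, 10.3 kb downstream of Rarg, lay inside the integrin gene Itgb7, 8.63 kb from its end. The others were within 1 kb of an end of Spryd3, Zfp740 (2 peaks), Mfsd5, Pfdn5, Myg1, Aaas and Sp7, at 22.1 to 98.8 kb from Rarg. The long noncoding RNA gene Gm36246 had an end 689 bp from the Sp7 peak, nearer than Sp7 at 775 bp. It also had an end 223 bp from the Aaas peak. The window was reached by 12 other protein-coding genes. The 5004 genes with a number of such neighbours within 1.5 times that of Rarg had a median of 3 peaks (quartiles 2 and 5), so Rarg stood above most of them. At the limit of the window, the outermost peaks counted lay 98.3 and 98.8 kb from Rarg, and the nearest ones not counted for any member lay 118 kb from Rara and 120 kb from Rarg.

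**Figure D3:**
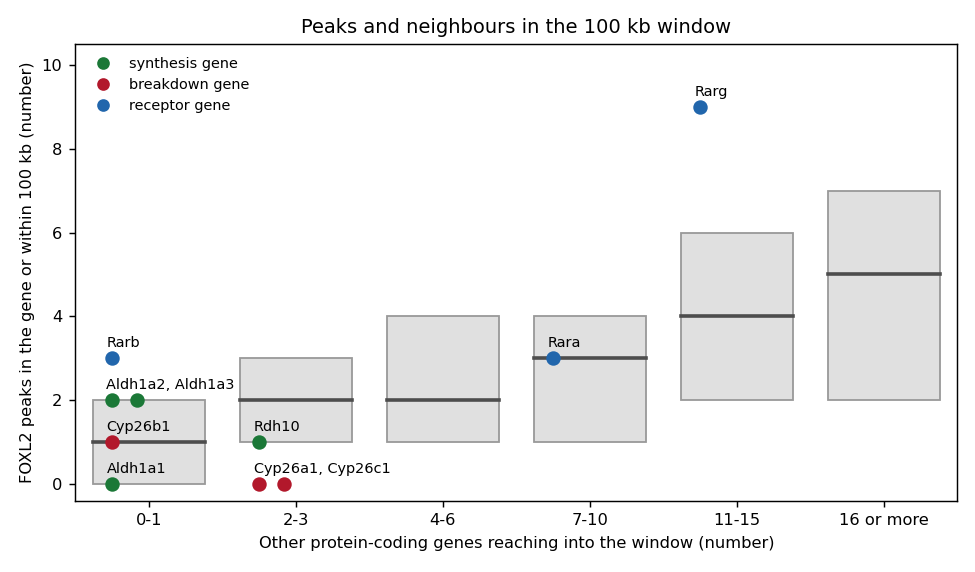
Number of FOXL2 peaks in each retinoic acid gene or within 100 kb (points), by the number of other protein-coding genes that reach into the window; boxes give the quartiles and lines the median over all protein-coding genes. Rarg has 9 peaks with 12 such neighbours and Rara 3 with 9, but Rarb also has 3 with only 1. Aldh1a2 and Aldh1a3 have 2 peaks with 1 neighbour, Cyp26b1 has 1 with 1 and Rdh10 1 with 3. Aldh1a1, Cyp26a1 and Cyp26c1, with 1 or 2 neighbours, have none.

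Distance from listed starts was then compared. Of the 8 genes with a listed start, 2 (Aldh1a2 and Rarb) had a peak centre within 1 kb of one, against 38.4% of the 17492 protein-coding genes with a listed start. Among 6632 peaks within 1 kb of a listed start, the median position was 136 bp downstream (quartiles 11 and 267 bp). The Aldh1a2 peak, at 66 bp downstream, lay within these quartiles, and the Rarb peak, at 234 bp upstream, lay outside them. Of the 21 peaks at the 10 genes, 5 were over 1 kb from every protein-coding gene end and every listed start, against 27.8% of all peaks on chromosomes with listed starts. These 5 were the upstream peak of Aldh1a2, the farther Lrrk1 peak, the Exoc6b peak, the second Rarb peak and the Itgb7 peak.

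The CpG content of the sequence around a start went with the presence of a peak across the genome. It is given as the number of CpG dinucleotides over the number expected from the C and G content of the 300 bases. With values under 0.2, 0.958% of 4695 listed starts had a peak within 1 kb, and with values of 1 or more 77.2% of 1730 did. The start of Aldh1a2, with 78.0% G and C and a ratio of 1.11, was the richest in CpG of the member starts and had a peak. Rarb, at 0.696, had a peak and lay in the range from 0.6 to 0.8, where 55.5% of starts had one. Cyp26a1, at 0.894, had none, in a range where 70.0% of starts had one. Of the 4 listed starts of Rara, the highest ratios were 0.609 and 0.606, at 2 starts whose sequences largely overlap, both without a peak. The starts of Aldh1a1 (0.0604 and 0.213), Cyp26c1 (0.235), Cyp26b1 (0.314) and Rarg (0.335 and 0.504) were poorer in CpG and had no peak. The 2 member starts with a peak were thus both among the 5 with a ratio over 0.6, which include the 2 overlapping ones of Rara. The part of CpG content in these peaks was not tested.

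**Figure D4:**
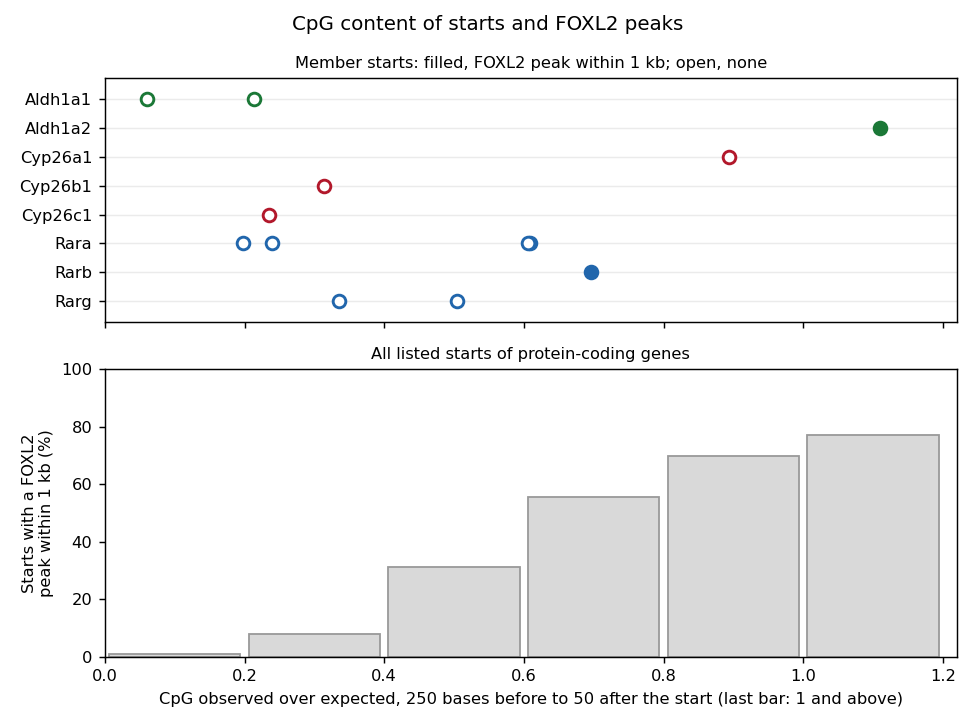
Upper panel, observed over expected CpG at each listed start of 8 retinoic acid genes, filled where a FOXL2 peak centre lies within 1 kb; lower panel, percentage of all listed starts with such a peak in each range of the ratio. Shares climb over the ranges to 77.2%, and Aldh1a2 (1.11) and Rarb (0.696) are the filled points, with Cyp26a1 (0.894) open between them.

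Other genes of the pathway were counted from a list of 28 carriers, retinal enzymes, RXR partners, cofactors and responsive genes. Of these 15 (53.6%) had a peak in the gene or within 10 kb, close to the 49.6% of all protein-coding genes. Within 100 kb 25 of 28 had one, against 76.3%. A peak with the gene's own end as its nearest was present for 16 of 28, against 40.4%. Inside the gene the count was 11 of 28, against 36.2%, and within 1 kb of either end 9 of 28, against 35.3%. None of these differences was tested. By role the counts were 6 of 6 cofactors, 2 of 3 RXR partners, 3 of 7 carriers and storage genes, 3 of 8 responsive genes and 1 of 4 retinal enzymes, and these small groups were not tested. Among the cofactors, the corepressor gene Ncor1 had peaks 8 bp outside and 561 bp inside its end. The coactivator genes Ncoa1, Ncoa2 and Ncoa3 had peaks 672, 196 and 188 bp inside, each with a second one outside the gene. That of Ncoa3 lay 5389 bp outside and was nearer to the end of LOC115489489, at 2017 bp. Nrip1, a corepressor of nuclear receptors, had 2 peaks, 394 and 1472 bp inside. Of the RXR partners, Rxra had peaks 272 and 1264 bp inside the gene and Rxrb 1 at 61 bp inside, whereas the nearest peak of Rxrg was 49.2 kb away. The second peak counted for Rxrb lay at Ring1.

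Among the carriers, Rbp4, the plasma carrier of retinol, had a peak 770 bp inside the gene. Among the retinal enzymes, Rdh11 had a peak 1675 bp outside the gene and 127 bp from the end of Vti1b. Among the responsive genes, the zinc finger gene Zbtb16 had one 378 bp inside. Another 3 of the 15, named after their values were seen, were Crabp2 with a peak 7.46 kb away, Tgm2 with one 7.57 kb away, and the meiosis gene Stra8, whose peak 9.39 kb away lay 59 bp from the end of Wdr91. No peak lay inside Stra8 or the meiotic cohesin gene Rec8, whose nearest was 10.2 kb away.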

How the data were processed

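The authors deposited the positions of their FOXL2 peaks, each a start and an end in bp on mm10, without header or score. The submitters' processing notes name Bowtie 1.2, Picard 1.110, bedtools 2.24.0 and HOMER 4.9; what each did, the threshold for a peak, and how the 2 ChIP and 2 input samples were joined were not stated in the sources used here. The threshold sets how many peaks there are, so a place without a peak may hold weaker binding. Every peak was 300 bp wide, and 11435 of 11438 lay on chromosomes 1 to 19, X and Y. Starts were made 1-based and peaks were placed by their centre. Gene ends came from a RefSeq table of GRCm38.p6, and strands and transcription starts from a RefSeq table of promoter sequences, which covered 17492 of 21887 protein-coding genes (79.9%). Exons, introns and the sequence of whole peaks were not used here. Each peak was assigned to the nearest protein-coding gene end, and nearby genes were read from the same table. Motifs were searched on both strands as exact letters. The counting was tested on simulated peaks. Groups and replicate numbers came from the sample titles, and the input samples have no values here. The 10 genes, the wider list and the definitions were chosen with earlier results of these data known. All 10 genes are named, and of the wider list up to 12 with a peak within 10 kb, by peak number and then distance. A few of those are not reported here. Alternatives were other windows, any base of the peak, merging of peaks within 1 kb, listed starts in place of gene ends, and genes of all kinds as neighbours. Python 3.11.15, pandas 2.3.3, NumPy 2.4.6 and Matplotlib 3.10.9 were used.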

Additional observations from a re-analysis of the deposited data

How the results depend on the processing

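Counts depended mainly on the window. Inside the gene alone, 2 of the 10 genes had a peak, with 3 peaks in all: 1 at synthesis, 0 at breakdown and 2 at receptor genes, and all 3 nearest to a member. With 10 kb, 4 genes had 5 peaks, 3 at synthesis, 0 at breakdown and 2 at receptor genes. With 50 kb there were 12 peaks, 6 of them at receptor genes, and with 200 kb 37 peaks, 3 at breakdown and 28 at receptor genes. Measured from listed starts, which left out Rdh10 and Aldh1a3, synthesis genes had 2 peaks. When genes of all kinds competed for a peak, 2 rather than 5 peaks were nearest to a member, those at the ends of Rdh10 and Aldh1a2. Only gene ends competed here. The peak 234 bp from the listed Rarb start thus went to Gm19061, with an end 57481 bp away. By listed starts, 4 peaks were nearest to a member. Any base of the peak in place of its centre, and merging within 1 kb, left each of these class counts within 1.5 times its value. Of 68 single-gene counts under these alternatives, 20 moved by more than that. No paired analysis was possible because 1 peak list stands for both ChIP samples, and for the same reason no replicate could be left out. A stricter peak threshold was not run, since the list has no score. Depth is unknown, so missing peaks do not show missing binding.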

Other observations

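The nearest peaks of all 3 breakdown genes lay inside genes of the exocyst, a complex that tethers secretory vesicles. For Cyp26b1 the peak was in Exoc6b, 46.8 kb away, and for Cyp26a1 and Cyp26c1 it was in the related gene Exoc6, 147 and 135 kb away. The 2 peaks differed in place within these genes. The Exoc6 peak was centred 120 bp from a listed Exoc6 start, and the Exoc6b peak was 22.2 kb from the nearest end of Exoc6b. Both were upstream of the Cyp26 genes in the direction of their transcription.

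Beyond the 100 kb window, 6 more peaks lay 118 to 199 kb upstream of Rara, which brought its count within 200 kb to 9. In order of distance they were nearest to Casc3, Msl1, Nr1d1, Thra (2 peaks) and Med24. Thra and Nr1d1 encode nuclear receptors, for thyroid hormone and for heme. No peak lay inside Rara in either window.

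Rarb shows how the class of a peak depends on the annotation. By gene ends the peak at its listed start is one of 4048 peaks over 1 kb from every protein-coding gene end on chromosomes with listed starts. Of these, 963 (23.8%) were within 1 kb of a listed start of a protein-coding gene, as the Rarb peak was.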
